A study of Mus musculus with 24 samples.

Results

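Promoter windows are the differential 5-hydroxymethylated regions (DhMRs) whose midpoint lay between 1000 bp before and 100 bp past the transcription start site (TSS) of a gene. Of the 20726 windows listed genome-wide, 605 met this rule on the GRCm38 mouse assembly, with the start sites of curated RefSeq transcripts. Of these, 320 carried more 5hmC in Wt25 cells and 285 carried more 5hmC in AA10 cells. Both are lines of mouse embryonic stem cells (ESCs) of mixed C57BL/6J and 129V background that lack Tet1, Tet2 and Tet3 and were grown in 2i medium with LIF. Wt25 carries lentiviral Flag-tagged human Tet3 in its wild-type form, and AA10 carries the phosphor-mutant form, in which serine residues targeted by the kinase cdk5 are replaced by alanine. Each line was a single puromycin-selected clone, and the lines were chosen for a comparable level of Tet3, so that the form of Tet3 and the clone cannot be told apart. 5hmC was measured by immunoprecipitation of DNA with an antibody to 5hmC and sequencing (5hmC-DIP), in 3 libraries per line. The lists hold 1 entry for each called 200 bp bin of the genome, with no level, fold change or depth, so that each value below is a count of windows and intervals cover counting error only.

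Tet enzymes oxidise 5-methylcytosine to 5hmC, a step towards removal of the methyl group. In mammals most of this methylation sits on CpG dinucleotides. Promoters with many CpGs, called CpG islands, are mostly unmethylated and offer Tet enzymes little substrate, whereas promoters with few CpGs and the flanks of islands are often methylated.

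Windows of both directions differ widely in CpG number, and this is visible in their sequences. Windows with many CpGs are shown for each direction, among protein-coding genes and windows that hold no annotated exon and little repeat sequence. Beside them are windows with fewer CpGs at genes of the lists described below, Kmt5a, a histone methyltransferase gene, Pou2f2, a POU-domain transcription factor, and Mir196b, a microRNA gene of the Hoxa cluster. All are from GRCm38, are written 5′ to 3′ on the strand of the gene, and have each CpG in capitals. Windows higher in Wt25 were those of Thegl (chr5:77015803-77016000, plus strand, 15 CpGs) and Kmt5a (chr5:124444603-124444800, plus strand, 6 CpGs). Windows higher in AA10 were those of Dnajc12 (chr10:63381603-63381800, plus strand, 13 CpGs), Rasl10a (chr11:5057803-5058000, plus strand, 12 CpGs), Dnajc17 (chr2:119209203-119209400, minus strand, 10 CpGs), Pou2f2 (chr7:25132603-25132800, minus strand, 9 CpGs) and Mir196b (chr6:52230803-52231000, minus strand, 7 CpGs).
Thegl: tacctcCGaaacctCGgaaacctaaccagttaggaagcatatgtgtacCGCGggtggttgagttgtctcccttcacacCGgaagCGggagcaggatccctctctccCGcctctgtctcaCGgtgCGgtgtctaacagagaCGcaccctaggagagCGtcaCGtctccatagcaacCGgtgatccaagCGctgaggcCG
Kmt5a: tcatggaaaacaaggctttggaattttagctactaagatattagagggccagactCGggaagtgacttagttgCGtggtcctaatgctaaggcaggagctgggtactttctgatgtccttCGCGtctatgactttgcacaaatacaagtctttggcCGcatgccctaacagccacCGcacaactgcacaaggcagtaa
Dnajc12: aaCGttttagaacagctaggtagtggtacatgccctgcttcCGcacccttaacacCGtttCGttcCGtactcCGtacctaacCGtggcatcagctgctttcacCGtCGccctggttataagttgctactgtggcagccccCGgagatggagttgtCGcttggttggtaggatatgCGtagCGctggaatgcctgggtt
Rasl10a: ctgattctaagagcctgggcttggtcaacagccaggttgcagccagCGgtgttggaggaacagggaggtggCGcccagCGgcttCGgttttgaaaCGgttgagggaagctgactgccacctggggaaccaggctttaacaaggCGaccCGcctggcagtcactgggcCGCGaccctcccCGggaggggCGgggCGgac
Dnajc17: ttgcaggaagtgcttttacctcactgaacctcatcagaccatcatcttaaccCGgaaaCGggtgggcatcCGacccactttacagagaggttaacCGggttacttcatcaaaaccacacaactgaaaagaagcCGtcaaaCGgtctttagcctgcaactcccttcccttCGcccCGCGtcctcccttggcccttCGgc
Pou2f2: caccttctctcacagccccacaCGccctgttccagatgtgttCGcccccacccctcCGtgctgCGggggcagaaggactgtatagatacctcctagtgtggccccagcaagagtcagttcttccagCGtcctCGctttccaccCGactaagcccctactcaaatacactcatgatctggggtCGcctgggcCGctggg
Mir196b: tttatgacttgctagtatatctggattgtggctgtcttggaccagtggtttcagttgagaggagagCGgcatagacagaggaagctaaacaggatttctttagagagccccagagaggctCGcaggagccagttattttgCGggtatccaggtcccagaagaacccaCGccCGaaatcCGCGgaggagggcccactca

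The GC content was 58.6% in the Thegl window, 47.5% in the Kmt5a window, 60.6% in the Pou2f2 window and 52.5% in the Mir196b window. The window of Thegl lay 121 bp upstream of its TSS, that of Kmt5a 797 bp, that of Pou2f2 242 bp and that of Mir196b 737 bp.

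Promoter windows leaned less towards Wt25 than the rest of the lists under the promoter definition used here. In the whole set 58.4% of windows were higher in Wt25, and 0.0914% of the 13237130 bins of the genome were listed as higher in Wt25 and 0.0652% as higher in AA10. In promoters 52.9% of windows were higher in Wt25 (320 of 605, 95% Wilson interval 48.9 to 56.8), against 58.5% of the 20121 windows outside promoters (57.8 to 59.2). The odds ratio for a promoter window to be higher in Wt25 was 0.796 (two-sided Fisher's exact test, p = 0.00647, Benjamini-Hochberg adjusted p = 0.0173 over 8 tests). Without chromosome 6 the shares were 57.2% and 61.2% and the difference no longer passed the threshold (odds ratio 0.849, adjusted p = 0.169 in Fisher's exact test). The call was also lost with model transcripts added (0.921, adjusted p = 0.333), with limits to 1000 bp downstream (0.859, adjusted p = 0.0577) and with limits from 500 bp upstream (0.784, adjusted p = 0.0836, all by Fisher's exact test). The Wt25 list had 2.65% of its windows in promoters and the AA10 list 3.30%. Neighbouring windows share DNA fragments and are not replicates of the lines, so that p-values over windows are too small.

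The direction of promoter windows differed between chromosomes, and chromosome 6 had the lowest odds ratio. Of its 51 promoter windows, 3 were higher in Wt25 and 48 in AA10, so that 5.88% were higher in Wt25 (odds ratio 0.0467 against the other chromosomes, two-sided Fisher's exact test, adjusted p = 2.82e-12 over 20 chromosomes). Among all windows listed on this chromosome 136 of 1136 were higher in Wt25, so the lean was not confined to promoters. Coverage of input DNA by chromosome was not analysed here, and a difference in chromosome copy number between Wt25 and AA10, which would bear on every chromosome 6 value below, was not tested. The 3 exceptions were at Mdfic, Tcaf2 and Dusp16, named here because they are the only ones. Chromosome 2 leaned the other way, with 40 promoter windows higher in Wt25 and 9 in AA10 (81.6%, odds ratio 4.38, Fisher's exact test, adjusted p = 0.000191), and so did chromosome 7, with 39 and 14 (73.6%, odds ratio 2.69, adjusted p = 0.00988). Among all listed windows, 73.9% on chromosome 2 and 75.3% on chromosome 7 were higher in Wt25, so these leans were not confined to promoters either. Of the 40 windows on chromosome 2, 10 lay at a single locus described below. The other 17 chromosomes with promoter windows did not pass the threshold, including chromosome 13 with 13 and 24 windows and chromosome 16 with 2 and 9 (both adjusted p = 0.0978 in Fisher's exact test). The Y chromosome held none. Per 1000 promoter bins there were 6.27 windows on chromosome 13, 6.08 on chromosome 6, 1.55 on chromosome 12 and 1.36 on chromosome 14. Of the 37 windows on chromosome 13, 18 lay at 1 locus described below, 16 of them higher in AA10.

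**Figure D1:**
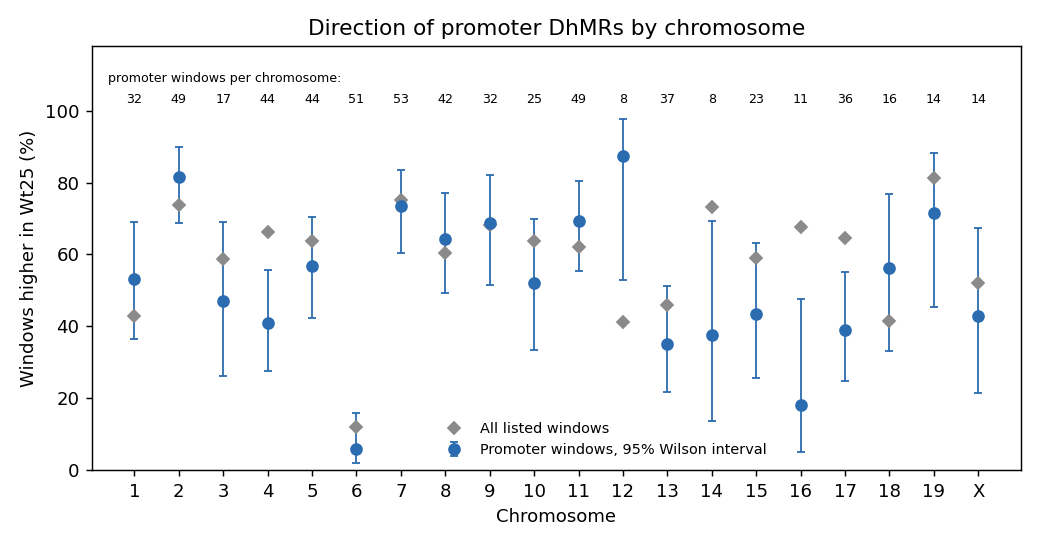
Share of promoter windows higher in Wt25 (%, vertical axis) on each chromosome (horizontal axis), as points with 95% Wilson intervals, beside the share among all listed windows (grey diamonds); the number of promoter windows stands above each. Chromosome 6 lies lowest at 5.88%, and 136 of all its 1136 listed windows were higher in Wt25.

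Part of the chromosome 6 set lay in the Hoxa cluster, which encodes homeodomain transcription factors that pattern the body axis. Within chr6:52215203-52312800 there were 7 windows, all higher in AA10, at Mira, Hoxa7, Mir196b, Hoxa10, Hottip and Evx1. The Hoxa10 window was centred 48 bp upstream of the TSS and held 9 CpGs, the Hottip window 73 bp upstream with 3 CpGs, and the Mira window 14 bp upstream with 1 CpG. Hottip and Mira are long non-coding RNA genes of the cluster. The other windows stood farther out, at 529 bp upstream for Hoxa7, 737 and 937 bp for Mir196b, and 796 bp for Evx1.

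Promoter windows also lay close together elsewhere. When windows up to 200000 bp apart were grouped, the 605 windows formed 431 loci, of which 53 held windows of at least 2 genes, and 41 of these 53 had a single direction. The same count was not made for listed windows outside promoters, so that nothing particular to promoters is read from it. The largest locus, chr13:119428403-119792200, held 18 windows at 9 genes, 16 of them higher in AA10. It runs from Paip1, a translation regulator, over Ccl28, a chemokine gene, and Hmgcs1, an enzyme of cholesterol synthesis, to Zfp131, a zinc finger gene. The next, chr2:119741403-119799600, held 10 windows at Itpka, Ltk, Rpap1 and Tyro3, all higher in Wt25. Itpka phosphorylates an inositol phosphate second messenger, and Ltk and Tyro3 are receptor tyrosine kinases. The 6 genes on chromosome 17 between Prss41 and Eci1 carried 7 windows, all higher in AA10. On chromosome 7 the windows of Tmem190, Tmem238, Shisa7 and Isoc2a, 5 in all, were higher in Wt25. Of the 18 windows on chromosome 13, 16 stood in dense runs, meaning 20 or more consecutive listed windows that share a direction and are no farther than 10000 bp apart, and so did all 10 on chromosome 2. Over all promoter windows 57 stood in such runs (9.42%), 26 higher in Wt25 and 31 higher in AA10. This share was not counted for windows outside promoters, so that it is not read as high or low. With dense runs left out the odds ratio for promoter windows was 0.734.

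The 605 windows belonged to 514 genes of the 26180 curated ones, each window being given to its nearest start site. Of these genes 272 had windows higher in Wt25 only, 240 had windows higher in AA10 only, and 2 had both. Most genes (442) had 1 window, 72 had at least 2, and the largest number was 4. Touching windows of one direction formed 282 groups for Wt25 and 251 for AA10, at most 4 windows wide.

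Genes of both directions were Tmem267 and Mdfic. At Tmem267, which encodes a membrane protein, 3 windows between 984 and 584 bp upstream were higher in AA10 and held 3, 3 and 1 CpGs, and the window centred 29 bp downstream of a second start site was higher in Wt25 and held 33 CpGs. At Mdfic, which encodes a MyoD family inhibitor domain protein, the window 759 bp upstream was higher in AA10 with 2 CpGs, and the window 41 bp downstream was higher in Wt25 with 12 CpGs. At each gene the window at the start was thus the one higher in Wt25. These are 2 genes, chosen because they had both directions, and no test was made.

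Among genes with 3 or 4 windows of a single direction, those higher in Wt25 were Cyp2c40, Rara, Itpka, Ltk, Mir6377, Plekha7, Dctn6 and Nnmt. Cyp2c40, a cytochrome P450 gene, had 4 windows from 688 to 88 bp upstream, each with 1 CpG, and all 4 lay in a dense run. Rara, which encodes a retinoic acid receptor, had 3 windows centred 370 and 170 bp upstream and 30 bp downstream, with 1, 3 and 4 CpGs. Itpka had 11, 9 and 30 CpGs in its windows 835, 235 and 35 bp upstream, the most for a gene in total (50). Nnmt, an enzyme that methylates nicotinamide, had windows 179, 379 and 779 bp upstream with 2, 2 and 3 CpGs. Thus some of these genes had windows rich in CpGs at the start and others had few CpGs throughout.

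Those higher in AA10 were 4833420G17Rik, with 4 windows, and Plcd4, 1700074H08Rik, Tnk2os, Lypla2, Hcar2 and Sh3bgrl, with 3 each. Plcd4, a phospholipase C gene, had windows 387 bp upstream and 13 bp downstream of its first start site, with 3 and 6 CpGs, and another at a second start site. Hcar2, a receptor for niacin, had windows 386, 586 and 786 bp upstream with 3, 1 and 6 CpGs. Sh3bgrl on the X chromosome had windows 105, 505 and 705 bp upstream with 7, 3 and 1 CpGs.

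Windows of both directions were spread along the promoter. Midpoints lay within 250 bp of the TSS in 99 of 320 windows higher in Wt25 (30.9%) and in 84 of 285 higher in AA10 (29.5%), against 32.7% of the 157186 promoter bins of the genome (odds ratio 1.07 between the directions, two-sided Fisher's exact test, adjusted p = 0.964). The median distance was 482.5 bp upstream for Wt25 and 466 bp upstream for AA10, and 442 bp for all promoter bins. From the TSS to 100 bp downstream there were 34 windows higher in Wt25 (10.6%, interval 7.70 to 14.5) and 16 higher in AA10 (5.61%, interval 3.48 to 8.92), against 9.81% of promoter bins. This last contrast was picked from 6 distance classes after the values were seen and was not tested. The nearest windows were those of Krt16, a keratin gene, at 0 bp, Nsg2 at 2 bp and Slc2a9, a urate transporter, at 4 bp downstream for Wt25. For AA10 they were those of Rnf6, a ring finger gene, 1 bp upstream, and Ltbp3, which binds latent TGF-beta, 2 bp, and Pik3cd, a lipid kinase subunit, 6 bp downstream. At the outer limit Gm4262 (996 bp upstream) was just inside and Mir5101 (1001 bp upstream) just outside. At the inner limit Frmd3 (99 bp downstream) was inside and Mon1b (103 bp downstream) outside.

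**Figure D2:**
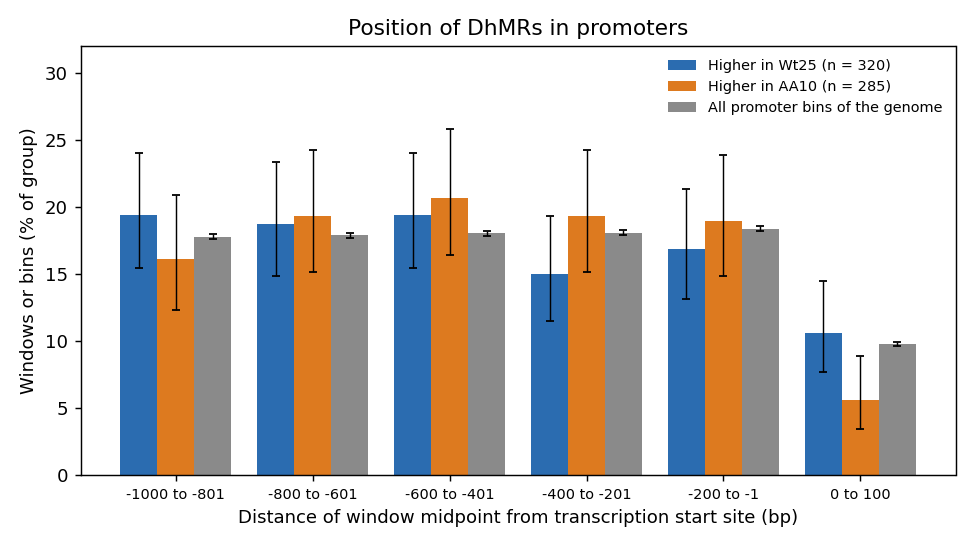
Distance of window midpoints from the TSS (bp, horizontal axis) as a share of each group (%, vertical axis), for windows higher in Wt25 (blue), higher in AA10 (orange) and all promoter bins of the genome (grey), with 95% Wilson intervals. The intervals of the directions overlap in all 6 classes, and from 0 to 100 bp the shares were 10.6% and 5.61%.

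CpG content of the promoter windows did not differ detectably between the directions. Windows higher in Wt25 held 5.39 ± 5.18 CpGs (SD over 320 windows) and those higher in AA10 5.08 ± 4.38 (SD over 285 windows), with a median of 4 in both. A window was called CpG-rich when its GC content was at least 50% and its observed over expected CpG ratio at least 0.6. This held for 35 windows higher in Wt25 (10.9%, interval 7.97 to 14.8) and 24 higher in AA10 (8.42%, interval 5.72 to 12.2), and the difference did not pass the threshold (odds ratio 1.34, two-sided Fisher's exact test, adjusted p = 0.675). Over both directions, 59 of 605 promoter windows (9.75%) were CpG-rich against 433 of 20121 windows outside promoters (2.15%), with an odds ratio of 4.91 (two-sided Fisher's exact test, adjusted p = 8.60e-20). Among the promoter bins of the genome the share was 18.1%. Windows with 0 or 1 CpG made up 12.7% of promoter windows, 24.4% of other windows and 30.7% of promoter bins. The share of promoter windows was thus below that of promoter bins both in the CpG-rich class and in the class with at most 1 CpG, a difference that was not tested.

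**Figure D3:**
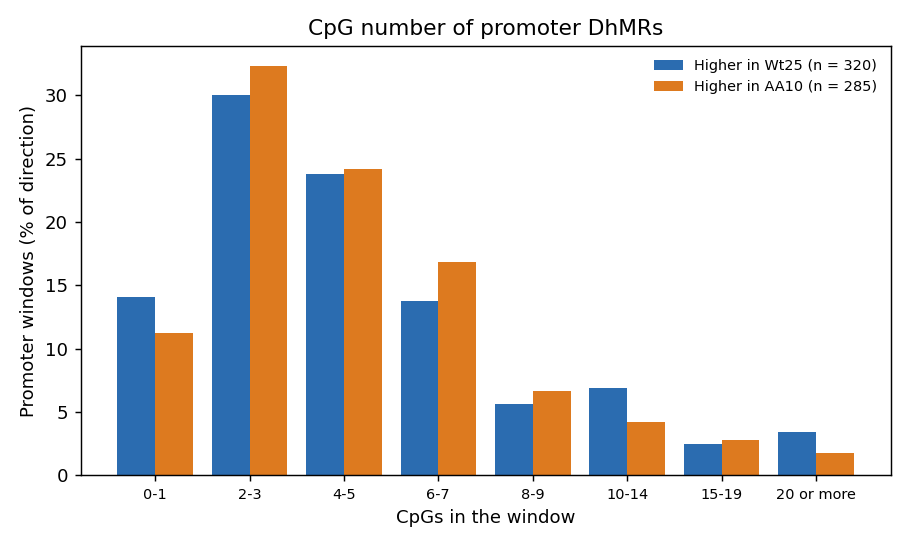
Number of CpGs per promoter window (horizontal axis, classes) as a share of each direction (%, vertical axis) for windows higher in Wt25 (blue, 320 windows) and higher in AA10 (orange, 285 windows). Both directions peak at 2 to 3 CpGs and share a median of 4.

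Most windows near CpG-rich starts were not CpG-rich themselves. The 500 bp around the start site met the CpG-rich definition for 275 of the 605 windows (45.5%), against 45.2% of all curated start sites. Of these 275 windows, 17.1% were CpG-rich, and their median distance was 597 bp upstream. The 330 windows at other starts had a median distance of 352 bp upstream, and 3.64% of them were CpG-rich. CpG-rich windows were most frequent at the TSS itself, where they made up 32.4% of windows higher in Wt25 and 31.3% of those higher in AA10 from 0 to 100 bp downstream, against 45.6% of promoter bins in the same place.

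Windows with many CpGs included, for Wt25, those of Tmem267 with 33, Itpka with 30, Cbx7 with 30, Tyro3 with 29, Bbc3 with 28, 1700067K01Rik with 25 and Trim68 with 22. Cbx7 encodes a Polycomb chromobox protein and Bbc3 a protein that promotes apoptosis. For AA10 they were those of Zfp629 with 36, Paip1 with 28, Frmd3 with 25, Ddx43 and Gfra3 with 21 each, and Sec24c, Tcam1 and 4833420G17Rik with 17 each. Zfp629 encodes a zinc finger protein, Ddx43 an RNA helicase, Gfra3 a neurotrophic factor co-receptor and Sec24c a coat protein of secretory vesicles. The Zfp629 window (chr7:127614803-127615000) was centred 35 bp upstream of the TSS and had a GC content of 84.8%, and the Cbx7 window (chr15:79932603-79932800) was centred 56 bp upstream and had a GC content of 72.2%. Each therefore lay at the start of its gene.

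Windows and gene bodies of the same gene mostly shared a direction. For 199 genes with a promoter window of one direction and at least 1 listed window in the gene body over 1000 bp away, the majority direction of the gene body was compared with that of the promoter. When the promoter window was higher in Wt25, the gene body was higher in Wt25 at 94 genes and in AA10 at 11. When it was higher in AA10, the gene body was higher in Wt25 at 19 genes and in AA10 at 75. The odds ratio was 33.7 (two-sided Fisher's exact test, adjusted p = 1.10e-23), and 169 of 199 genes (84.9%, interval 79.3 to 89.2) had the same direction. Without dense runs the odds ratio was 25.3, and without chromosome 6 it was 27.1. In 78 of the genes the gene body held 1 window, and the other 121 agreed in 113 cases. In genes without a promoter window, the direction of the first listed window was the same as that of the rest in 1264 of 1543 (81.9%), and the share for promoters was not shown to differ from it (odds ratio 1.24, two-sided Fisher's exact test, p = 0.325). Shared direction was therefore measured in both kinds of gene.

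**Figure D4:**
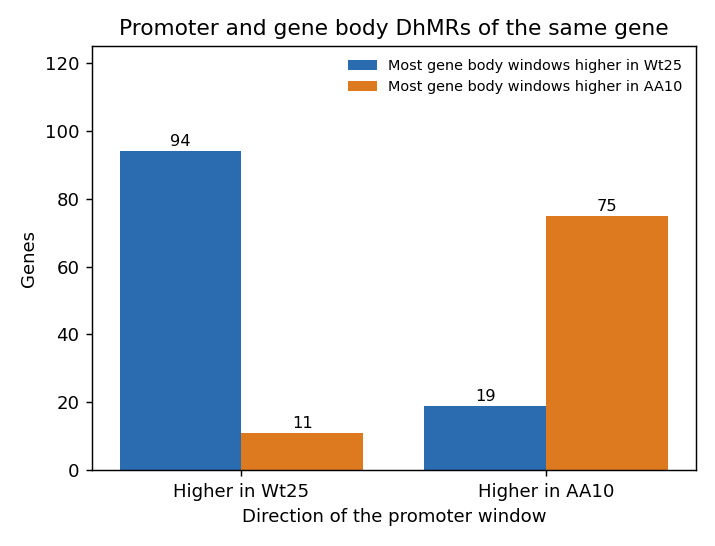
Number of genes (vertical axis) by the direction of the promoter window (horizontal axis) and the direction of most gene body windows (blue, higher in Wt25; orange, higher in AA10), for 199 genes. Of these, 169 fall in the bars where both directions are the same, 94 for Wt25 and 75 for AA10.

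Named examples covered genes of several kinds. Ephb2, an ephrin receptor of axon guidance, had a promoter window higher in Wt25 and 11 gene body windows higher in Wt25 and 0 higher in AA10. Pou2f2 had a promoter window higher in AA10 and 5 gene body windows higher in AA10 and 0 in Wt25. Nrf1, a transcription factor that binds CpG-containing sites in promoters, had a promoter window higher in AA10 and 28 gene body windows higher in AA10, on chromosome 6, where 136 of 1136 listed windows were higher in Wt25. Among the 30 genes that differed, Abhd2 had a promoter window higher in AA10 and a gene body with 6 windows higher in Wt25 and 1 in AA10, and Tacc2 had one higher in AA10 with 5 and 1. Both lie on chromosome 7. The genes Nrf1, Abhd2 and Tacc2 were picked after their values were seen.

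Promoter windows were mostly at protein-coding genes. The nearest start site was that of a protein-coding gene for 515 of 605 windows (85.1%), that of a lncRNA for 68, of a microRNA for 17, of a transcribed pseudogene for 4 and of a snRNA for 1, and 82.6% of promoter bins were protein-coding. The share did not pass the threshold between the directions (275 of 320 and 240 of 285, odds ratio 1.15, two-sided Fisher's exact test, adjusted p = 0.910). Repeats covered at least 50% of the bases in 68 windows (11.2%), as in 11.3% of promoter bins, with 35 in Wt25 and 33 in AA10 (odds ratio 0.938, Fisher's exact test, adjusted p = 1.00). A window overlapped annotated exons in 156 cases and coding bases in 37. It lay inside another gene in 152 cases and inside its own gene in 191. The latter were 115 of 320 windows higher in Wt25 (35.9%) and 76 of 285 higher in AA10 (26.7%), a difference that was not tested. There were 5 windows in a bidirectional promoter (0.826% of 605), 3 higher in Wt25 and 2 higher in AA10. Of the 157186 promoter bins of the genome, 3662 were bidirectional, which is a larger share than among the windows. This difference was not tested. In 39 windows a run of 32 bases was shared with another window, in 4 groups that each held both directions, so that windows with shared sequence were listed in opposite directions.

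Gene groups were represented in small numbers. They were picked by the start of the gene symbol and leave out members with other symbols, so that a count holds for the list and not for a whole family. The zinc finger list had 14 windows at 12 of 473 genes. Of these, 3 were higher in Wt25 (Zfp652, Zfp385c and Zfp934). The other 11, at 9 genes, were higher in AA10, among them Zfp629 and Zfp81 with 2 each, and Zfp131, Zfp459, Zfp954 and Zfp773. Zfp131 lies at the chromosome 13 locus described above. Outside the list, Zfhx3 had 2 windows and Ovol3 1 higher in Wt25, and Tshz1 and Klf17 had 1 each higher in AA10. MicroRNA genes had 16 windows at 13 of 1190 genes, 10 higher in Wt25, among them Mir142, Mir9-2 and Mir101a, and 6 higher in AA10, among them Mir196b, Mir193b and Mir763. RefSeq places the start of a microRNA gene at its hairpin precursor, so that these windows need not lie at the promoter of the primary transcript. Solute carrier genes had 8 windows higher in Wt25 and 6 higher in AA10 at 12 of 397 genes, and the lipid metabolism list 7 and 2 at 6 of 201, 4 of these at Cyp2c40. Outside that list, windows higher in AA10 stood at the lipid and ketone body genes Decr1, Eci1, Acat3, Oxct1 and Lypla2. Windows higher in Wt25 stood at the lipid genes Pctp, Dhdds and Srd5a2, so that no lean of lipid genes is read from the list. Ribosomal and mitochondrial protein genes had 3 and 5 windows at 8 of 310 genes. Keratin, defensin and secretoglobin genes had 3 and 2 at 5 of 216 genes, with Krt16 and Krt71 among the former and Krt8 and Krt28 the latter. The cell adhesion genes Pcdhb1, Pcdhb16 and Pcdhb17 were the genes with windows among 98 whose symbols begin with Cdh or Pcdh, with 5 windows higher in Wt25, while other cadherin superfamily genes had windows higher in AA10 (Dsc2, Clstn1 and Clstn3, with 1 each). The ion channel list had 2 windows higher in Wt25 (2 of 175 genes), and Hcn3, a cation channel gene that its symbols do not cover, had 1 higher in AA10. The neurotransmitter receptor list had 1 higher in AA10, at Gria4, an AMPA receptor subunit (1 of 93), and outside the list Gabrq, a GABA receptor subunit, and Oprm1, an opioid receptor, had 1 each higher in Wt25. For comparison, 514 of all 26180 curated genes had a promoter window, and 58.4% of all listed windows were higher in Wt25.

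In the list of developmental transcription factors 8 of 220 genes had windows. Higher in Wt25 were those of Irx2 (2 windows, 9 and 7 CpGs), Lhx6, which acts in interneurons, Hoxd12, Pbx4 and Foxb1. Higher in AA10 were those of Hoxa7, Hoxa10 and Pou2f2, the first 2 of which are on chromosome 6. Other transcription factor genes were not in the list, and these are examples. Evx1 on chromosome 6 and Tshz1, Satb1 and Klf17 on other chromosomes had windows higher in AA10. Tbr1, Bhlhe22, Zfhx3 and Mafa had windows higher in Wt25. The neuronal and Notch list was represented by Ephb2, higher in Wt25 at 890 bp upstream, and Sema5a, an axon guidance gene, higher in AA10 at 711 bp upstream (2 of 107 genes). Neuronal genes outside this list had windows of both directions. Examples are Nrcam, Nrgn, Nsg2, Cbln2 and Srgap1, higher in Wt25, and Gap43, Ntn3, Gdnf and Scg3, higher in AA10. Of the DNA methylation enzymes Dnmt1, the maintenance methyltransferase, had 1 window higher in Wt25 at 523 bp upstream. In the chromatin modifier list Kmt5a, a histone H4 lysine methyltransferase, had 1 higher in Wt25, while Smarcd1 and Smarcad1 had 3 higher in AA10. Chromatin genes outside the list had windows of both directions. Examples higher in Wt25 were Cbx7 with 2 and Suv39h2 and Brd7 with 1 each. Examples higher in AA10 were Aebp2 with 2, on chromosome 6, and Satb1 with 1. Imprinted genes with windows were Mcts2, with 2 higher in Wt25, and Plagl1, with 1 higher in AA10. The germline list had 1 window, higher in AA10, at Tex11 (1 of 87 genes). Outside this list genes of meiosis or testis had windows of both directions. Examples are Meioc and Tex22, with 1 each higher in Wt25, and Spata21 and Tsx, with 1 each higher in AA10. The pluripotency list (32 genes), vomeronasal receptors (350 genes) and small nucleolar RNA genes (115 genes) had none, and olfactory receptors had them at 4 of 1125 genes. The histone list matched 4 RefSeq symbols with no window, and the histone gene H2bu2, which it missed, had 1 higher in Wt25.

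**Figure D5:**
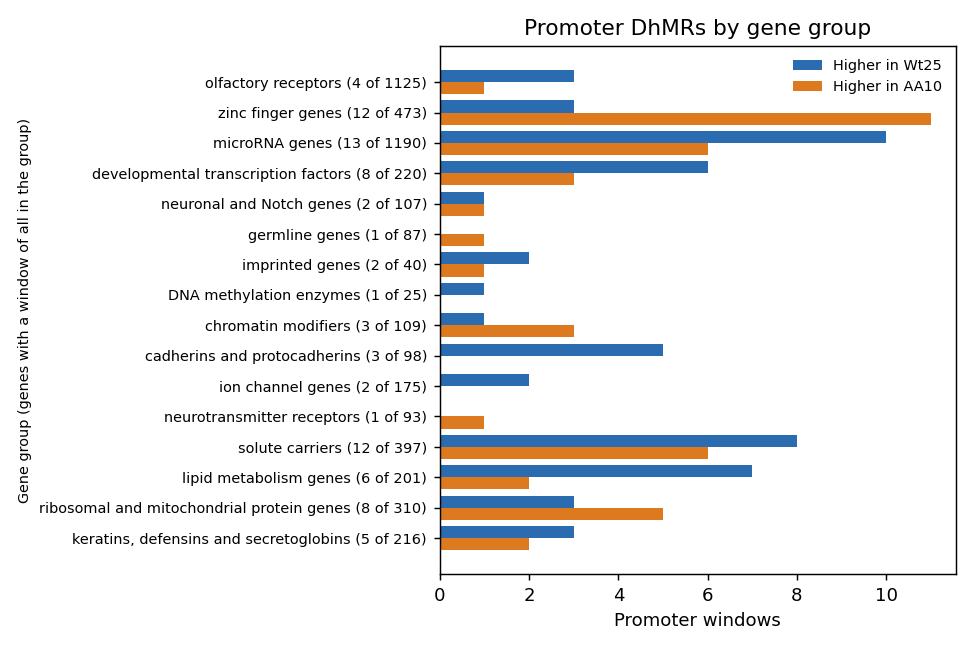
Number of promoter windows (horizontal axis) by gene group picked by symbol (vertical axis, with the number of genes that have a window of all genes in the group), with blue bars for windows higher in Wt25 and orange bars for those higher in AA10. The zinc finger list had 3 and 11 windows, at 3 and 9 genes, and the microRNA list 10 and 6.

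No promoter window by this rule was found at the loci examined singly by PCR or at the Tet genes. These are Pou3f2, which encodes the neuronal factor Brn2, Hes1, Hey2, Cdh4, Foxp1, Mapt, Elovl6, Gapdh, Tet1, Tet2 and Tet3. The PCR at Pou3f2, Hes1 and Hey2 used neuronal progenitors of other lines, so that the lists used here do not test it. At Cdh4, Foxp1, Mapt and Elovl6 the PCR tested differential regions away from the start. The promoters of Pou3f2 and Gapdh were examined for occupancy of the histone variant H2A.Z in undifferentiated ESCs of other lines, which the lists do not test either. The nearest listed window lay 26871 bp downstream of the start at Cdh4 and 24516 bp downstream at Elovl6. It lay 71604 bp upstream at Foxp1 and 16534 bp upstream at Mapt. Eda2r, one of the genes whose mRNA was followed by PCR and which encodes a receptor of the TNF receptor family, had a window higher in Wt25, centred 93 bp upstream of its TSS with 4 CpGs. It was the only gene of that mRNA set with a promoter window. The others, among them Etv1, Meis2, Ntrk3, Egfr, Dnmt3b, Pax6, Ldha and Gata3, had none. The listed window nearest to the start of Pou3f2 was higher in Wt25 and lay 3136 bp upstream. Absence from a list does not show that the level was equal.

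Short motifs of promoter factors were counted in both directions. The share of windows with CCAAT on either strand was 21.6% for Wt25 and 23.5% for AA10, against 24.3% of all promoter bins. TATAAA stood in 6.25% and 9.47% (11.5% of bins), GGGCGG in 17.2% and 14.0% (15.3%), CACGTG in 3.44% and 3.51% (3.38%), CCGG in 34.4% and 32.3% (31.6%), and CAGGTG in 18.4% and 15.1% (14.3%). TGACGTCA stood in 1 and 0 windows (0.489% of bins) and GCGCATGCG in 1 and 1 (0.401%). None of the 8 motifs passed the threshold between directions after adjustment in Fisher's exact test, and the smallest unadjusted p was 0.171, for TATAAA, so that 0 were under 0.05 unadjusted. CACGTG and CAGGTG are forms of the E-box, and none of the 8 motifs contains another.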

How the data were processed

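5hmC-DIP libraries, 3 from Wt25 and 3 from AA10 cells, were sequenced, and the other assays of the series (RNA-seq, H3K27ac, MNase and input libraries) were not analysed here. Per the study's methods, the authors aligned reads uniquely to GRCm38 with STAR, removed duplicates with Picard and compared 200 bp bins with MEDIPS over the libraries together (p under 0.05, fold change at least 1). They then dropped bins that touched IgG-DIP peaks, tandem repeats or sequence of low complexity, and used HOMER for annotation. Tool versions are not given in the sources used here. The deposited lists hold positions of 198 bp and a gene ID, with no read count, fold change or depth, so weak and strong windows weigh alike and the spread between libraries is unknown.

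Start sites came from curated RefSeq transcripts of GRCm38. Windows were counted by direction in Python 3.11.15 (scipy 1.17.1) with two-sided Fisher's exact tests, Benjamini-Hochberg adjusted within 8 single tests, 20 chromosomes and 8 motifs (threshold 0.05), and 95% Wilson intervals. Functions were tested on simulated windows. Named genes were those with several windows, with the most CpGs, nearest to the start, in the 20 gene lists, examined by the study, or at the promoter limits. The members and lists were chosen with earlier results of these data known. Loci, the CpG state of start regions, shared runs of 32 bases and the comparison with genes lacking a promoter window were added after seeing the data. Some windows that meet this rule are not reported here.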

Additional observations from a re-analysis of the deposited data

How the results depend on the processing

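Alternatives were tried for each test, and most kept their direction and side of the threshold. The odds ratio for direction of promoter windows (0.796) lost its call with model transcripts added (0.921), with limits to 1000 bp downstream (0.859), with limits from 500 bp upstream (0.784) and without chromosome 6 (0.849). With an adjusted p already over the threshold, the odds ratio crossed 1 for bidirectional windows (0.905 with limits from 500 bp upstream, 0.907 with touching windows joined), protein-coding genes (0.897 with model transcripts, 0.962 joined, 0.843 without chromosome 6), repeats (1.01 to 1000 bp downstream, 1.02 joined), distance (0.873 joined, 0.931 without dense runs), CACGTG (1.22 from 500 bp upstream) and CCGG (0.979 with model transcripts, 0.990 joined). The causes were not tested. TGACGTCA gave no odds ratio, since no window higher in AA10 held it. The odds ratio on chromosome 6 ranged from 0.0325 to 0.0587 and that of the gene bodies from 25.3 to 44.4, and both remained past the threshold in every alternative run. No library could be left out, since the lists pool the libraries. No paired analysis was possible because the lists hold no value per library. The lists hold no depth per window, so that windows missing from them are not shown to be equal.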

Other observations

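The deposited lists give a gene ID for 585 of the 605 promoter windows, and in 536 the symbol of that gene was the same as that of the nearest curated start site. The nearest start site was the outermost one of its gene for 525 windows (86.8%), 266 of them higher in Wt25 and 259 higher in AA10.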
